A study of Mus musculus with 12 samples.

Results

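The response of p53 KO somatosensory cortex to ethanol was examined in 6 of the 12 RNA-Seq libraries of the series, 3 from KO mice given ethanol and 3 from KO mice given saline. They were chosen by their genotype and treatment labels. All 6 came from C57BL/6 pups labelled male on postnatal day 7, born to heterozygous parents. The KO mice were homozygous for Trp53tm1Tyj, a targeted disruption of the gene that encodes p53. Ethanol was given intraperitoneally at 2.5 g/kg per injection on 2 occasions, controls received saline, and the cortex was collected 8 hours after the last injection. The other 6 libraries, from WT mice given ethanol (3) or saline (3), entered the model to estimate the spread and the Genotype x Treatment interaction. Part of the tissue was cut by laser microdissection and part by hole punch, and neither method can be assigned to a library. The labels do not say whether each library is 1 pup, so a p-value measures only the spread between these libraries.

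In the first postnatal week the rodent cortex grows synapses rapidly, and a binge-like ethanol exposure at this age is widely used to model the brain injury of fetal alcohol spectrum disorder. Ethanol strengthens GABA-A receptor currents and blocks NMDA receptors, which silences developing neurons and drives some of them into apoptosis. The transcription factor p53 can promote apoptosis through targets such as Bax and Bbc3, and cell cycle arrest through Cdkn1a. The study reported that its absence did not protect the cortex or hippocampus from ethanol-induced apoptosis. The KO mouse shows which transcript differences are seen without p53. The immature brain makes almost all of its own cholesterol, through the mevalonate pathway, and the sterol-regulated factor SREBP-2 sets the transcription of that pathway.

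The libraries differed in ways that touch every result. The KO ethanol libraries held 10311978 (replicate 10), 719735 (replicate 12) and 13119826 (replicate 18) estimated counts, and the KO saline libraries 11627871 (replicate 7), 17066392 (replicate 8) and 10143487 (replicate 9). In the shallow library, KO ethanol replicate 12, 1 read is worth 1.67 CPM (read counts scaled to a common TMM library size), against 0.0586 to 0.0877 CPM in the other 5. Of the 14739 genes tested, 2214 had no read in it, and at most 34 had none in any of the others. Across genes, the log2 CPM of the shallow library correlated with those of the other 5 at r = 0.823 to 0.844. The remaining libraries did not group by treatment. KO saline replicate 7 had r = 0.986 and 0.982 with the 2 deep ethanol libraries but 0.939 and 0.951 with the other two saline libraries, which had r = 0.971 with each other. Neuron, astrocyte and oligodendrocyte lineage markers were present in all 6 libraries. Markers of tissue that borders the cortex were uneven. The 6 choroid plexus markers summed to 257, 0 and 2217 CPM in ethanol replicates 10, 12 and 18 and to 409, 27.2 and 2261 CPM in saline replicates 7, 8 and 9, and the 6 fibroblast markers to 85.1, 26.8 and 77.2 CPM against 80.8, 24.5 and 31.1 CPM. Striatal markers summed to 112 to 290 CPM in ethanol and 101 to 175 CPM in saline libraries. Fewer cells of a type and less RNA per cell cannot be told apart in such libraries.

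Trp53 was not lower in the libraries labelled KO. Its level was 28.1, 23.4 and 28.7 CPM in KO ethanol, 27.6, 11.1 and 11.7 CPM in KO saline, and between 3.68 and 26.2 CPM in the 6 WT libraries. The disrupted allele still yields a truncated 3′ transcript and the files give 1 value per transcript, so the whole-gene count is no test of the deletion, and KO stands for the label throughout. Male identity was checked as well. Xist, which is transcribed from the inactive X chromosome of females, was at 2.05 CPM or less in all 6 KO libraries, where the Y-linked Ddx3y was between 36.8 and 115 CPM. In 2 of the 3 WT ethanol libraries Xist was at 870 and 1759 CPM with no Ddx3y read, against their label. The KO levels come from other libraries, but the spread of these enters every p-value, and without WT ethanol replicate 4 the KO comparison described next gave 218 higher and 224 lower calls in place of 169 and 296.

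**Figure D1:**
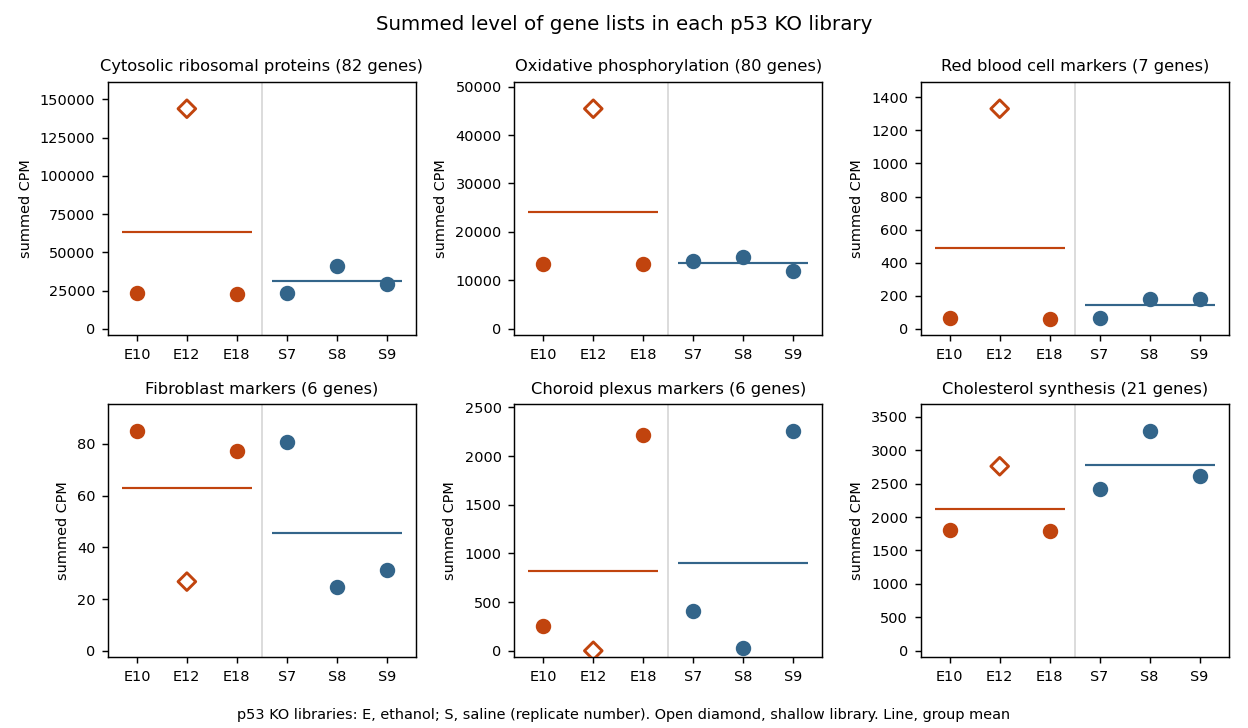
Summed CPM (linear axes) of 5 gene lists that separate single libraries and of the cholesterol synthesis genes, with 1 point per p53 KO library and a line at the group mean. The shallow ethanol library (E12) carries 1331 CPM of red blood cell markers against 60.7 to 181 CPM elsewhere, and its ribosomal protein and oxidative phosphorylation sums are above those of every other library.

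At an unadjusted p under 0.05 (edgeR quasi-likelihood test on all 12 libraries, two-sided), 465 of 14739 genes (3.15%) differed between KO ethanol and KO saline, 169 of them higher in ethanol (1.15%) and 296 lower (2.01%). These are the genes described as called below. None passed a Benjamini-Hochberg adjusted p of 0.05 in edgeR, where the smallest adjusted p was 0.999, so the called genes are differences that did not survive correction. DESeq2 called 583 genes, 331 higher and 252 lower, and 2 passed its adjusted threshold, Hhip and Rpph1 (adjusted p = 0.0182 each). Without the shallow library 274 of 15007 genes (1.83%) were called, 97 higher (0.646%) and 177 lower (1.18%), and again none passed the adjusted threshold (smallest adjusted p = 0.999). The 2 sets of calls shared 144 genes, which is 31% of the first and 52.6% of the second, and every shared gene kept its direction. A limma fit with a quality weight for each library gave 5060 calls, of which 2627 passed the adjusted threshold, and weighted the libraries at 4.16 and 3.51 for the deep ethanol libraries, 0.376 for the shallow one, and 0.608, 0.905 and 3.77 for saline replicates 7, 8 and 9.

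Among the genes called higher in ethanol, Mt1 was called in both fits. It encodes metallothionein 1, a zinc-binding protein induced by metals, glucocorticoids and oxidative stress. Mt1 (chr8:94179089-94180327, mm10) was at 85.3, 114 and 115 CPM in ethanol replicates 10, 12 and 18 and at 44.0, 30.7 and 40.1 CPM in saline replicates 7, 8 and 9. The groups did not overlap, and the means were 105 ± 16.7 and 38.3 ± 6.86 CPM (SD, n = 3 each). The log2 fold change was 1.45 (SE 0.39, unadjusted p = 0.00211 in edgeR) with all libraries and 1.39 (unadjusted p = 0.00546) without the shallow one. Its neighbour Mt2, which encodes metallothionein 2, was at 51.5, 18.4 and 105 CPM in ethanol and 31.4, 33.7 and 32.0 CPM in saline libraries. The 2 deep ethanol libraries were above every saline library, and the shallow one, with 11 reads, was below them. The log2 fold change of Mt2 was 0.89 (SE 0.54, unadjusted p = 0.118) with the shallow library and 1.27 (unadjusted p = 0.0234) without it. In WT mice Mt1 was also higher in ethanol (log2 fold change 0.88, unadjusted p = 0.0364), and the interaction did not pass (unadjusted p = 0.311).

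The promoters of both genes are shown because metal responses of metallothioneins run through short elements close to the start. The windows are RefSeq promoters on GRCm38.p6, plus strand, from 250 bases before to 50 bases after the start (chr8:94178839-94179138 for Mt1 and chr8:94172368-94172667 for Mt2), and the capitals mark the metal response core, searched as TGCACNC or TGCGCNC on both strands.
Mt1: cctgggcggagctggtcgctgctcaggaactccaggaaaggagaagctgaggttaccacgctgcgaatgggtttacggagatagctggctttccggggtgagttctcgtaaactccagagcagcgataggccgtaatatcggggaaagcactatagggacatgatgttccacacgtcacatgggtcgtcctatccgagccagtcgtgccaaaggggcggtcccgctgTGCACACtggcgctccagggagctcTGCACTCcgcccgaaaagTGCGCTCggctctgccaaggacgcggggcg
Mt2: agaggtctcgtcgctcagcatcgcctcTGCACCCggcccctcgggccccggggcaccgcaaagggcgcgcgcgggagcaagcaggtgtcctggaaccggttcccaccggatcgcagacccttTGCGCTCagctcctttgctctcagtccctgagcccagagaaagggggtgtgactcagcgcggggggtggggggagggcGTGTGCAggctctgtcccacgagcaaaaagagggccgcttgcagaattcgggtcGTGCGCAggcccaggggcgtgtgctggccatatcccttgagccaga
The Mt1 window held 3 matches and the Mt2 window 4, while 25.7% of 32851 promoter windows held at least 1, 1.97% at least 3 and 0.517% at least 4. A match is a description of the letters and says nothing of binding in these mice.

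The glucocorticoid response list, to which both metallothioneins belong, had 2 called genes among 17 tested (background 3.15%). Mt1 was higher and Tsc22d3 lower, and the list median log2 fold change was 0.18 against 0.01 for all genes tested. Tsc22d3, also known as GILZ, is a leucine zipper gene induced by glucocorticoids. It was at 32.5, 21.7 and 28.7 CPM in ethanol and 37.9, 62.8 and 57.8 CPM in saline libraries, which did not overlap (log2 fold change -0.91, SE 0.38, unadjusted p = 0.0322). Without the shallow library Mt1 and Mt2 were the called members (background 1.83%), and the median was 0.40. Tsc22d3 then had a log2 fold change of -0.79 (unadjusted p = 0.0781). Fkbp5 and Sgk1, widely used glucocorticoid-induced genes, had overlapping levels (6.69 to 22.1 against 20.7 to 27.8 CPM for Fkbp5, and 36.8 to 81.0 against 42.5 to 69.0 CPM for Sgk1).

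Several genes of cholesterol synthesis were at lower levels in the ethanol libraries. The 21 enzymes of this list summed to 1807, 2760 and 1796 CPM in ethanol and 2415, 3291 and 2610 CPM in saline libraries. The sum in the shallow library lay above those of saline replicates 7 and 9. All 21 listed enzymes were tested, 4 were called, all of them lower (background 2.01%), and the median log2 fold change was -0.31. By level alone, 5 of the 21 had all 3 ethanol libraries below all 3 saline libraries and none had the reverse, against 6.87% and 3.89% of all genes tested.

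Hmgcs1, the synthase near the start of the pathway, was at 545, 550 and 573 CPM in ethanol and 736, 1047 and 841 CPM in saline libraries, without overlap (log2 fold change -0.65, SE 0.36, unadjusted p = 0.0919). Idi1, the isomerase that provides the first building block of the isoprenoid chain, was at 76.7, 45.1 and 63.6 CPM against 102, 166 and 125 CPM, also without overlap (log2 fold change -1.06, SE 0.42, unadjusted p = 0.0226, and -0.90, unadjusted p = 0.0711, without the shallow library). Hsd17b7, a 3-ketosteroid reductase late in the pathway, was at 15.4, 5.02 and 16.1 CPM against 24.7, 27.8 and 28.1 CPM. The groups did not overlap, although the shallow value rests on 3 reads (log2 fold change -1.02, SE 0.40, unadjusted p = 0.0239, and -0.77, unadjusted p = 0.0521, without it). Cyp51, the lanosterol demethylase, was at 83.0, 129 and 83.6 CPM in ethanol and 115, 225 and 156 CPM in saline libraries. Here the shallow library lay above saline replicate 7 (log2 fold change -0.76, SE 0.35, unadjusted p = 0.0485), and without it the log2 fold change was -0.99 (unadjusted p = 0.0188). The groups did not overlap in Lss, lanosterol synthase, either (log2 fold change -0.58, unadjusted p = 0.143), which was singled out after its values were seen. Tm7sf2, a sterol reductase, was an exception, with 45.2, 117 and 40.4 CPM in ethanol against 45.3, 23.2 and 32.4 CPM in saline libraries (log2 fold change 0.96, unadjusted p = 0.0622).

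The Hmgcs1 promoter is shown as the 1 window of this pathway that held a sterol regulatory element, the binding site of SREBP proteins. It covers chr13:119690101-119690400 (RefSeq, GRCm38.p6, plus strand), and the capitals mark TCACNCCAC, searched on both strands.
Hmgcs1: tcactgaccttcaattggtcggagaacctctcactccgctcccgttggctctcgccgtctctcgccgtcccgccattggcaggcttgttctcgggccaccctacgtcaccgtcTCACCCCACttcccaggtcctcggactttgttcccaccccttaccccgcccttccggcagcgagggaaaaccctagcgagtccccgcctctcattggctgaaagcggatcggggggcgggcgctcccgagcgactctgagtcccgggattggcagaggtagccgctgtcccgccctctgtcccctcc
Of the 21 genes, 16 had a promoter in the table and 1 of them held the element in its window, while 1.24% of the 32851 windows did. No match says only that these letters are not in a window of this length.

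More enzymes had a negative value when the shallow library was left out. The median log2 fold change of the 21 enzymes went from -0.31 to -0.55, with 19 of 21 negative where 15 had been, and Cyp51 was among the 2 called (background 1.18% lower). In a fit of the 5 deep KO libraries alone, chosen after seeing the data, 9 of the 21 were called lower (background 4.2%) and none higher (background 2.91%). When trends with the length and GC content of transcripts were removed, the median was again -0.31 and 3 enzymes were called (background 1.43%). The median was -0.16 without ethanol replicate 10 and -0.25 without replicate 18. In WT mice, which share no library with the KO comparison, 7 of the 21 were called lower (background 8.36%), none higher (background 9.99%), and the median was -0.43. In that WT contrast 71 of 78 cytosolic ribosomal protein genes were called lower as well. Some WT ethanol libraries carried Xist, so sex and treatment cannot be fully told apart there.

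Among 21 genes of sterol sensing and transport, 1 was called (background 3.15%) and the median log2 fold change was -0.10. The called gene was Stard4, a cytosolic sterol carrier whose transcription is itself sterol-regulated. Stard4 was at 9.47, 3.34 and 9.45 CPM in ethanol and 16.1, 26.8 and 23.2 CPM in saline libraries. The groups did not overlap, but the shallow value is 2 reads, under the 3 counts (5.01 CPM) taken as the floor. Its log2 fold change was -1.42 (SE 0.45, unadjusted p = 0.00668), and -1.22 (unadjusted p = 0.0158) without the shallow library, and it was called under each of the 23 alternatives in which it was tested. Insig1, which retains the SREBP complex in the endoplasmic reticulum when sterols are abundant, was at 42.2, 36.8 and 67.7 CPM against 73.8, 73.4 and 77.6 CPM, again without overlap (log2 fold change -0.59, SE 0.33, unadjusted p = 0.0884). The genes of the factors themselves did not separate the groups. Srebf2 was at 118, 40.1 and 103 CPM in ethanol and 133, 94.3 and 164 CPM in saline libraries, and Srebf1 at 20.8, 16.7 and 35.5 against 19.8, 11.1 and 24.6 CPM.

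In fatty acid synthesis none of the 16 genes was called, the median log2 fold change was -0.25, and 5 of the 16 had all ethanol libraries below all saline libraries with none the reverse (6.87% and 3.89% of all genes). Those 5 were Acly, Acaca, Fasn, Elovl6 and Acsl3. Acaca, acetyl-CoA carboxylase, was at 105, 117 and 103 CPM in ethanol and 127, 158 and 151 CPM in saline libraries (log2 fold change -0.42, SE 0.36, unadjusted p = 0.253), and Fasn, fatty acid synthase, at 226, 201 and 236 against 281, 268 and 386 CPM (log2 fold change -0.50, SE 0.49, unadjusted p = 0.332). Neither gene overlapped between groups, and neither passed the test. Without the shallow library Scd1, a desaturase, and Acsl4, an acyl-CoA synthetase, were called lower (background 1.18%). Their log2 fold changes were -1.09 and -1.16 (unadjusted p = 0.0390 and 0.0297). After the length and GC trends were removed the list median was -0.03, and Acsl4 stood at 0.01. In WT mice 1 of the 16 was called higher (background 9.99%), none lower (background 8.36%), and the median was 0.08.

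**Figure D2:**
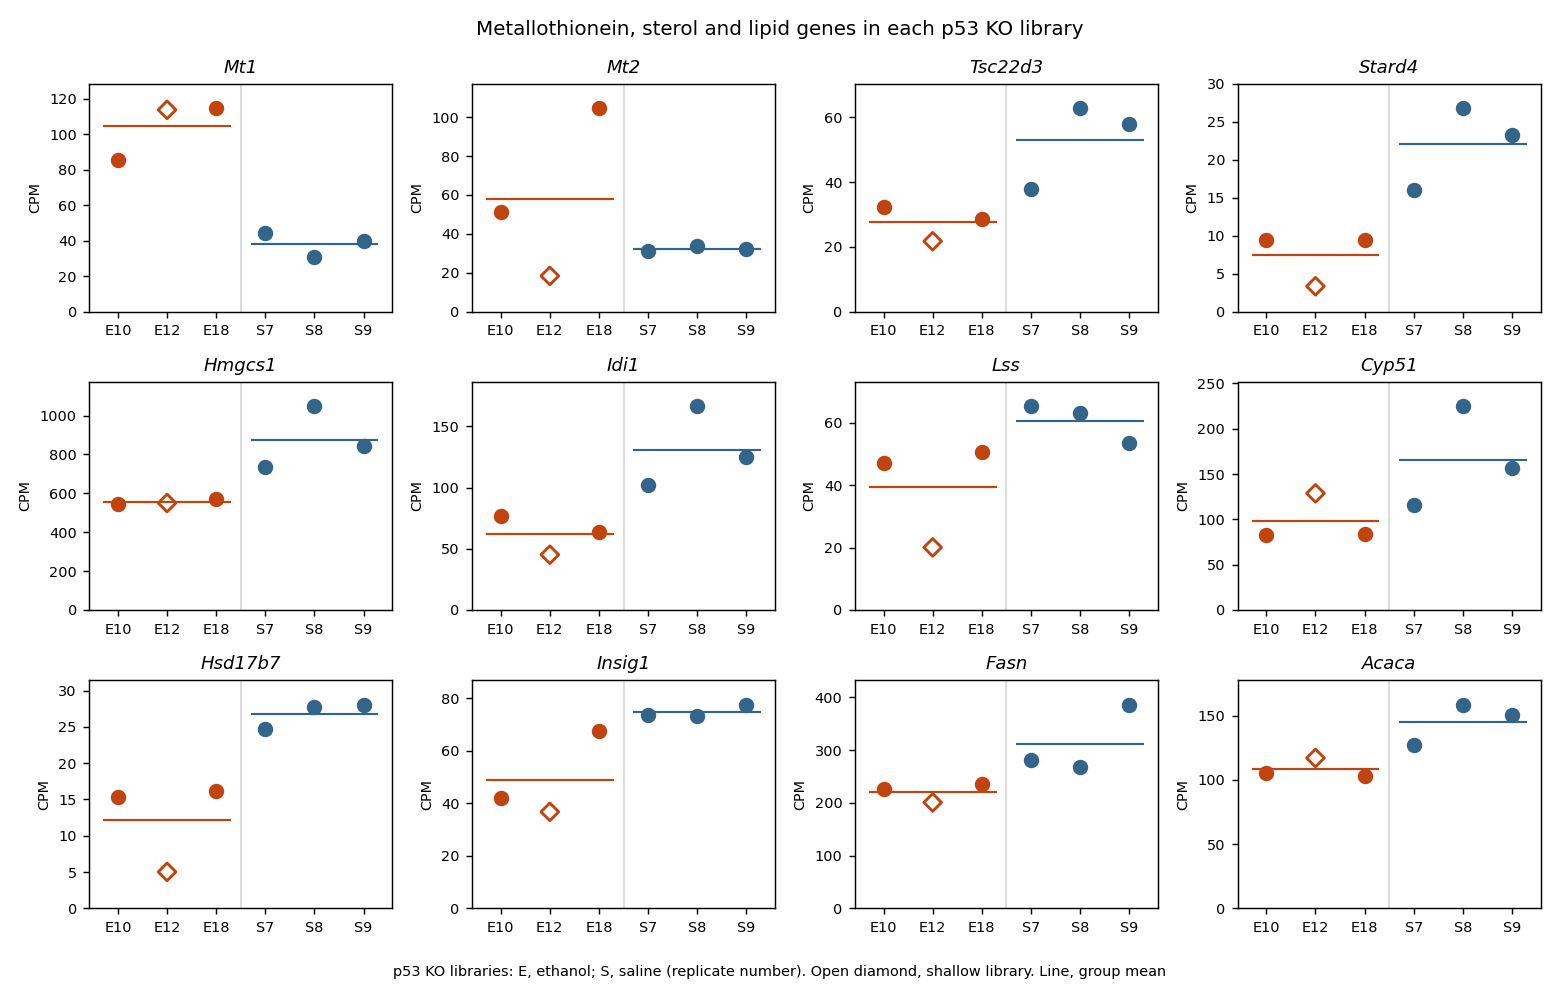
CPM of 12 metallothionein, glucocorticoid, sterol and fatty acid genes in each p53 KO library (linear axes from 0), with 1 point per library, the shallow library as an open diamond and a line at the group mean. Mt1 is between 85.3 and 115 CPM in ethanol and between 30.7 and 44.0 CPM in saline libraries, and Idi1, Hsd17b7, Hmgcs1, Lss and Stard4 have every ethanol point below every saline point, where the shallow point of Stard4 is 2 reads.

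In GABA signaling, 2 of 23 genes were called, both lower in ethanol (background 2.01%), and the median log2 fold change was -0.45. Gabrb2, a beta subunit of the GABA-A receptor, was at 127, 149 and 117 CPM in ethanol and 159, 328 and 264 CPM in saline libraries. The groups did not overlap, with saline replicate 7 nearest to the ethanol libraries (log2 fold change -0.94, SE 0.43, unadjusted p = 0.0469, and -1.04, unadjusted p = 0.0538, without the shallow library). Slc12a2, the chloride importer NKCC1 that keeps GABA depolarizing in immature neurons, was at 35, 23.4 and 37.2 CPM against 35.6, 73.6 and 68.2 CPM. Saline replicate 7 lay within the ethanol range (log2 fold change -0.86, SE 0.38, unadjusted p = 0.0391, and -0.72, unadjusted p = 0.101, without the shallow library). By level, 5 of the 23 had all ethanol below all saline libraries and none the reverse (6.87% and 3.89% of all genes). Without the shallow library the median was -0.68 and 2 genes were called, both lower (background 1.18%). These were Gabra5 and Gabrg1 (log2 fold changes -1.03 and -1.67, unadjusted p = 0.0256 and 0.0395). With length and GC trends removed the median was -0.12 and none was called. GABA genes have a median GC content of 44.2%, against 50.4% over all genes tested. In WT mice 6 of the 23 were called higher (background 9.99%), none lower (background 8.36%), and the median was 0.53.

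Of 22 glutamate receptor genes 1 was called, Grm5 (background 3.15%), and the median was -0.15. Grm5 had a log2 fold change of -0.97 (SE 0.43, unadjusted p = 0.0394), and of -0.71 (unadjusted p = 0.127) without the shallow library. In WT mice 6 of the 22 were called higher (background 9.99%), 1 lower (background 8.36%), and the median was 0.76. Of 27 genes of synaptic vesicle release none was called in KO mice and the median was -0.11.

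Hhip had the lowest p of all genes in the 12-library fit. It encodes a membrane protein that binds and restrains hedgehog ligands. Hhip (chr8:79965851-80058008, mm10) was at 2.05, 0 and 5.07 CPM in ethanol replicates 10, 12 and 18 and at 5.68, 52.5 and 54.5 CPM in saline replicates 7, 8 and 9. The groups did not overlap, but replicate 7 was close to the ethanol libraries, and a count of 0 in the shallow library allows up to 5.01 CPM (3 counts, counting error only). The log2 fold change was -3.59 (SE 0.80, unadjusted p = 0.000466), and -3.39 (unadjusted p = 0.00165) without the shallow library. St8sia4, which adds polysialic acid to the neural cell adhesion molecule, was at 12.2, 6.69 and 11.5 CPM against 11.1, 88.7 and 46.2 CPM (log2 fold change -2.18, SE 0.63, unadjusted p = 0.00351). Dio2, the deiodinase that activates thyroid hormone in astrocytes, was at 43.1, 30.1 and 42.8 CPM against 49.6, 159 and 157 CPM (log2 fold change -1.63, SE 0.48, unadjusted p = 0.00395). Elavl2, a neuronal RNA-binding protein, was at 77.6, 63.5 and 77.6 CPM against 97.1, 302 and 160 CPM (log2 fold change -1.34, unadjusted p = 0.00519). Creb1, an activity-regulated transcription factor, was at 32.8, 20.1 and 33.7 CPM against 36.4, 115 and 77.5 CPM (log2 fold change -1.37, unadjusted p = 0.00554). St8sia4, Dio2, Elavl2 and Creb1 were also called lower without the shallow library.

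These genes share 1 pattern, in which saline replicates 8 and 9 were high and replicate 7 lay with the ethanol libraries. Of the 296 genes called lower, 289 (97.6%) had replicate 7 nearer to the mean of the 2 deep ethanol libraries than to the mean of replicates 8 and 9. The same held for 78.8% of the 7118 other genes whose mean in replicates 8 and 9 was above that of the deep ethanol libraries. Without saline replicate 8 the number of called genes was 48, without replicate 9 it was 185, and without replicate 7 it was 1141, of which none passed the adjusted threshold (smallest adjusted p = 0.271). Replicates 8 and 9 share the opening letters of their library names, which the labels do not explain, and their part in the result was not tested. Genes called lower were also longer, with a median of 5046 bases and 42% GC, against 2950 bases and 50.4% GC over all genes. The deviation of each library from the KO mean followed GC content with Spearman correlations of -0.68 and -0.17 in saline replicates 8 and 9 and 0.26 to 0.27 in replicate 7 and the deep ethanol libraries. With both trends removed 211 genes (1.43%) were called, and Hhip and Dio2 were among them (log2 fold changes -2.91 and -1.05).

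**Figure D3:**
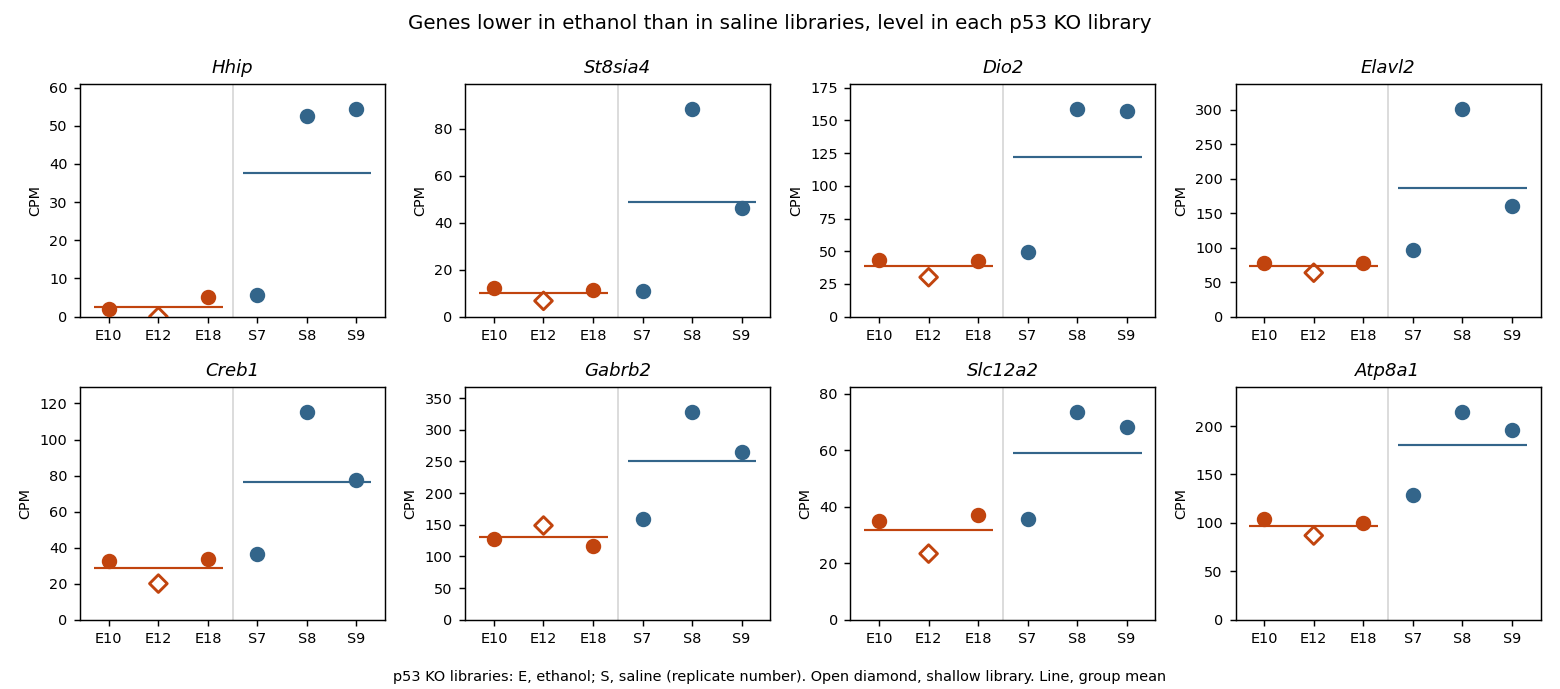
CPM of 8 genes lower in ethanol than in saline, in each p53 KO library (linear axes from 0), with 1 point per library, the shallow library as an open diamond and a line at the group mean. In Hhip, St8sia4, Dio2 and Creb1 saline replicates 8 and 9 are high, and saline replicate 7 is close to the ethanol libraries.

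Adcyap1 had the smallest p of all when the shallow library was left out. It encodes the neuropeptide PACAP and was at 15.7, 55.2 and 11.2 CPM in ethanol and 29.1, 44.9 and 41.1 CPM in saline libraries. The 2 deep ethanol libraries were below every saline library and the shallow one was above them. Its log2 fold change was -0.64 (SE 0.51, unadjusted p = 0.226) with all libraries and -1.51 (unadjusted p = 0.00142) without the shallow one.

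The shallow library stood out among the genes called higher. Of the 169 genes called higher it held the highest level of the 6 libraries in 136 (80.5%), against 27.8% of all genes tested, and their median length was 1106 bases. Lrrc17, a leucine-rich repeat gene, was at 423 CPM there and between 0.664 and 1.93 CPM in the other 5, so that its log2 fold change of 6.96 (unadjusted p = 0.00227) became -0.14 (unadjusted p = 0.873) without that library. In 3 noncoding RNAs of ribosome and RNA processing the shallow library was also the highest, but the deep ethanol libraries lay above the saline libraries as well. Rpph1, the RNA of ribonuclease P, was at 9.55, 110 and 5.65 CPM in ethanol and 2.73, 0.410 and 1.40 CPM in saline libraries, and Rmrp at 7.97, 48.5 and 4.57 against 2.14, 0.293 and 0.526 CPM. Neither overlapped between groups. The log2 fold changes without the shallow library were 2.33 (unadjusted p = 0.0250) for Rpph1 and 2.66 (unadjusted p = 0.0262) for Rmrp. Rn45s, the ribosomal RNA precursor, was at 644, 4649 and 417 CPM in ethanol and 336, 92.9 and 178 CPM in saline libraries, and its log2 fold change went from 3.23 (unadjusted p = 0.00475) to 1.39 (unadjusted p = 0.0885) without the shallow library.

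Among the protein-coding genes of the same direction, several were close to the detection limit. Pdlim3, a cytoskeletal adaptor, was at 0.947, 0 and 1.65 CPM in ethanol and 0.221, 0.176 and 0.176 CPM in saline libraries (log2 fold change 2.54, unadjusted p = 0.00791), and Ltbp2, an extracellular matrix protein, at 2.13, 0 and 2.60 against 0.148, 0.234 and 0.614 CPM (log2 fold change 2.61, unadjusted p = 0.00876). In both, the deep ethanol libraries were above every saline library and the shallow one had no read, which allows up to 5.01 CPM. Six3, a forebrain homeobox gene of the ventral telencephalon, was at 0.395, 3.34 and 4.88 CPM against 0.221, 0 and 0.263 CPM (log2 fold change 4.09, unadjusted p = 0.00653). The striatal marker Adora2a, an adenosine receptor gene, was also called higher, at 7.11, 13.4 and 27.0 CPM against 8.19, 1.87 and 3.69 CPM. Its log2 fold change was 1.82 (unadjusted p = 0.0475), and 1.90 (unadjusted p = 0.0601) without the shallow library. It was the 1 called of 6 striatal markers tested (background 1.15% higher), with a list median of 0.51. The summed striatal markers were also highest in ethanol replicate 18 (290 CPM), and their part in these values was not tested.

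The values of translation and respiration genes depended on the shallow library. All 78 cytosolic ribosomal protein genes tested had a positive log2 fold change with it (median 1.04), and 5 were called higher (background 1.15%). Without it 67 of 78 had a negative log2 fold change, with a median of -0.37 and none called. With 4 untested members included, the 82 genes summed to 23130, 143900 and 22930 CPM in ethanol and 23270, 41300 and 29050 CPM in saline libraries. Of 77 oxidative phosphorylation genes 11 were called higher with it (median 0.89, background 1.15%) and none without it (median 0.09, background 0.646%). Uqcrq, a subunit of respiratory complex III, was at 204, 804 and 208 CPM in ethanol and 184, 115 and 137 CPM in saline libraries, without overlap, and its log2 fold change was 1.47 (unadjusted p = 0.0225) and 0.50 (unadjusted p = 0.308) without the shallow library. The hemoglobin gene Hba-a1, whose reads can be shared with its near copy Hba-a2, was at 7.58, 201 and 6.34 CPM in ethanol and 5.98, 20.9 and 25.9 CPM in saline libraries, and its log2 fold change turned from 1.90 (unadjusted p = 0.0843) to -1.34 (unadjusted p = 0.0464). The ribosomal and respiratory genes have short transcripts (medians of 795 and 731 bases). With trends with length and GC content removed, the ribosomal median was 0.16 (1 called), the respiratory median 0.11 (2 called) and that of the 7 red blood cell markers 0.51 (none called). In that fit 1.43% of all genes were called. The part of blood and depth in these values was not tested.

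**Figure D4:**
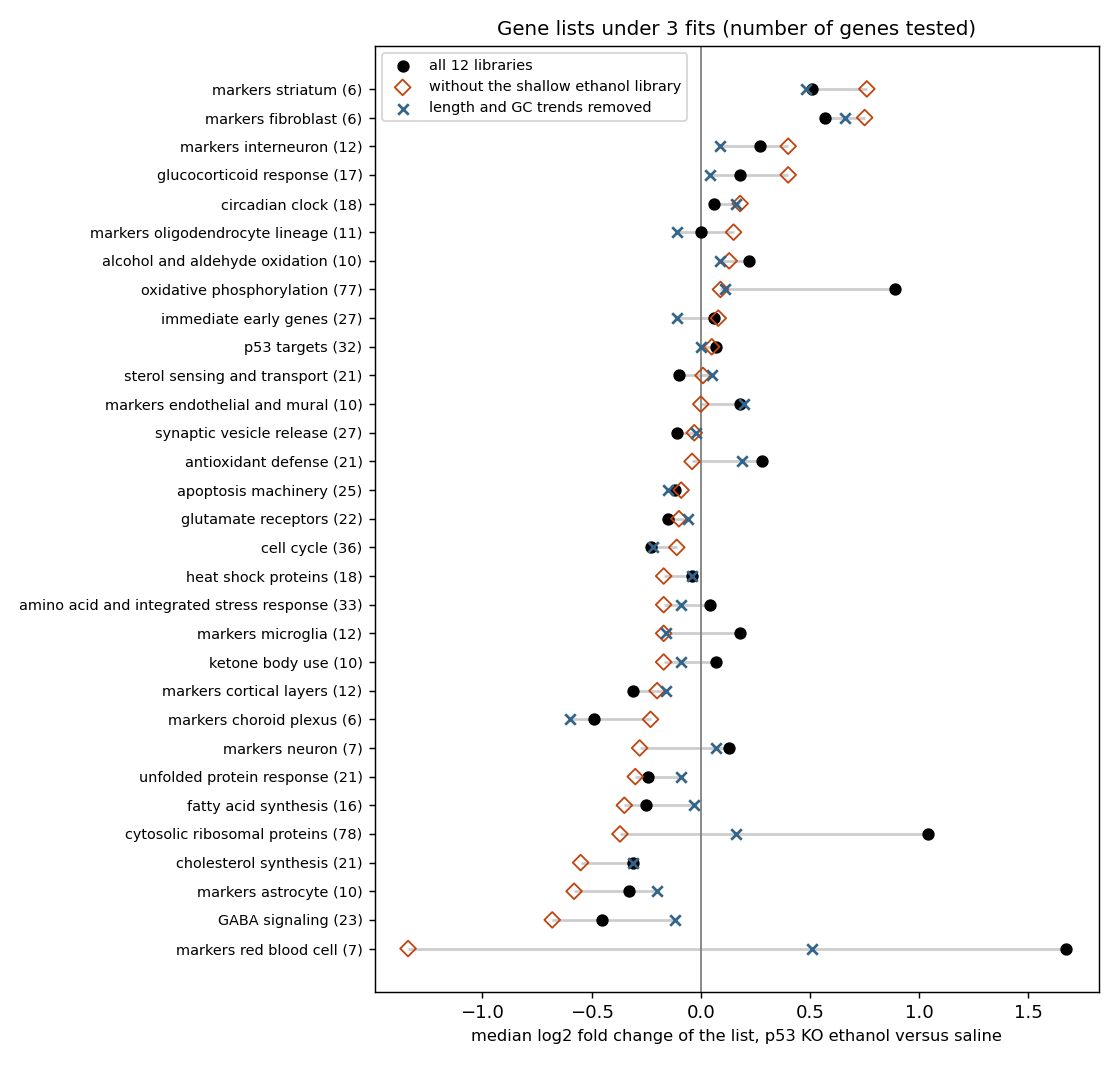
Median log2 fold change of each gene list in p53 KO ethanol versus saline (x axis), with the number of genes tested in parentheses, from the fit to all 12 libraries (black points), the fit without the shallow library (open diamonds) and the fit with length and GC trends removed (crosses). Ribosomal proteins move from 1.04 to -0.37 and red blood cell markers from 1.67 to -1.34 without the shallow library, while cholesterol synthesis lies between -0.55 and -0.31 in the 3 fits.

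None of 32 p53 target genes tested was called, where 3.15% of all genes were, and their median log2 fold change was 0.07. Cdkn1a, the cell cycle inhibitor p21, was at 24.1, 56.8 and 28.9 CPM in ethanol and 22.4, 22.3 and 36.0 CPM in saline libraries, Bax at 84.2, 104 and 90.4 against 102, 71.0 and 58.4 CPM, and Bbc3, which encodes PUMA, at 23.5, 8.36 and 20.6 against 18.3, 8.32 and 26.9 CPM. All 3 overlapped between groups. Mdm2, the ubiquitin ligase of p53, did not overlap, with 28.3, 40.1 and 30.9 CPM against 26.1, 25.4 and 27.8 CPM, but the difference was small (log2 fold change 0.30, SE 0.32, unadjusted p = 0.367). The groups also did not overlap in Tnfrsf10b, a death receptor, at 1.26, 8.36 and 1.40 CPM in ethanol and 1.25, 0.351 and 0.526 CPM in saline libraries (log2 fold change 1.75, unadjusted p = 0.0672, and 0.90, unadjusted p = 0.247, without the shallow library), or in Gadd45a, a stress-induced gene (2.37, 3.34 and 2.47 against 1.84, 1.35 and 1.75 CPM, with 2 reads in the shallow library). In the other direction Rrm2b, a ribonucleotide reductase subunit, was at 15.8, 15.0 and 12.7 against 16.7, 34.1 and 30.5 CPM (log2 fold change -0.91, unadjusted p = 0.0800). By level, 3 of the 32 had all ethanol above all saline libraries and 1 the reverse (3.89% and 6.87% of all genes). Without the shallow library 1 of 33 was called, Ccng1, a cyclin G gene that was lower in ethanol (log2 fold change -1.28, unadjusted p = 0.0375). None of 25 genes of the apoptosis machinery was called with the shallow library (median -0.12) or without it (median -0.09), against 3.15% and 1.83% of all genes.

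The remaining lists held 1 called gene at most, apart from 2 marker lists, where 3.15% of all genes tested were called. Canx, the chaperone calnexin, was lower among 21 genes of the unfolded protein response (log2 fold change -0.96, unadjusted p = 0.0306, list median -0.24). Slc16a7, a monocarboxylate transporter, was lower among 10 genes of ketone body use at 6.63, 3.34 and 4.06 CPM against 6.71, 19.2 and 16.7 CPM (log2 fold change -1.50, unadjusted p = 0.00932, list median 0.07). Nr4a3 was lower among 27 immediate early genes (log2 fold change -1.05, unadjusted p = 0.0392, list median 0.06), and Top2a, a topoisomerase of dividing cells, among 36 cell cycle genes (log2 fold change -1.23, unadjusted p = 0.0346, list median -0.23). Nr4a3 and Top2a were no longer called without the shallow library (unadjusted p = 0.116 and 0.0805), while Canx and Slc16a7 were. No gene was called in alcohol and aldehyde oxidation (10 tested, median 0.22), the amino acid and integrated stress response (33, median 0.04), antioxidant defense (21, median 0.28), heat shock proteins (18, median -0.04) or the circadian clock (18, median 0.06). In the marker lists the deep-layer genes Etv1 and Tle4 were called lower among 12 layer markers (log2 fold changes -1.25 and -1.01, unadjusted p = 0.0219 and 0.0226), with saline replicate 7 at 27.2 CPM of Etv1 and 58.1 CPM of Tle4 against at most 34.7 and 64.8 CPM in ethanol libraries, and the interneuron genes Sst and Pvalb higher among 12 (log2 fold changes 1.66 and 2.15, unadjusted p = 0.0334 and 0.0289). Tle4 and Sst were no longer called without the shallow library (unadjusted p = 0.0528 and 0.350), and Etv1 and Pvalb were. Pvalb was tested in 21 of 24 alternatives and was no longer called in 5 of these. No marker of neurons (7 tested, median 0.13), astrocytes (10, median -0.33), the oligodendrocyte lineage (11, median 0.00), microglia (12, median 0.18), endothelial and mural cells (10, median 0.18), fibroblasts (6, median 0.57), choroid plexus (6, median -0.49) or red blood cells (7, median 1.67) was called. In the fit without the shallow library 5 of the 7 red blood cell genes were called lower (background 1.18%).

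Of the genes that the study discusses for this tissue, Atp8a1, a phospholipid flippase of neurons, was lower in ethanol. It was at 104, 86.9 and 99.7 CPM in ethanol and 129, 215 and 196 CPM in saline libraries, without overlap (log2 fold change -0.89, SE 0.31, unadjusted p = 0.0122, and -0.82, unadjusted p = 0.0269, without the shallow library). With length and GC trends removed it was -0.33 (unadjusted p = 0.242). Dcx, a microtubule protein of migrating neurons, had a log2 fold change of -0.86 (SE 0.44, unadjusted p = 0.0716). Jdp2, Eif4e2, Dmtf1, Map4 and Trp53 were not called (log2 fold changes 0.29, 0.00, -0.11, -0.05 and 0.69, with SE 0.41, 0.30, 0.36, 0.34 and 0.60). The study lists Jdp2 and Eif4e2 as higher and Atp8a1 and Map4 as lower in KO ethanol, at nominal significance without correction. The values here are sums over all transcripts of a gene symbol and do not measure a single transcript. Sik2, a salt-inducible kinase, was at 12.8, 8.36 and 15.2 CPM against 14.1, 16.8 and 16.9 CPM (log2 fold change -0.33, SE 0.37, unadjusted p = 0.384).

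Whether the difference in KO mice departed from that in WT mice was tested by the interaction. It had an unadjusted p under 0.05 for 2237 of 14739 genes (15.2%), and none passed the adjusted threshold in edgeR (smallest adjusted p = 0.14). Among the 179 named genes tested, 62 had an unadjusted p under 0.05, but these genes were partly chosen by the KO contrast that enters the interaction. Hhip was higher in WT ethanol (log2 fold change 1.56, unadjusted p = 0.0501) and lower in KO ethanol, with an interaction p of 0.000267 before adjustment. Dio2 also had a positive WT value beside its negative KO value (edgeR unadjusted p of the interaction 0.00195), as did Stard4 and Atp8a1. Sik2 differed through WT mice, where its log2 fold change was 2.06 (unadjusted p = 0.000105, and 0.000492 for the interaction, both in edgeR). As 2 of the 3 WT ethanol libraries carried Xist, sex and treatment cannot be fully told apart on the WT side.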

How the data were processed

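Stranded RNA-Seq of somatosensory cortex was analysed in 12 libraries grouped by the genotype and treatment in their labels. Reads were aligned to mm10 with Bowtie2 within TopHat and quantified per RefSeq transcript in Partek Flow, per the study's methods and the submitters' processing notes; the counting settings are not given in the sources used here. The authors deposited estimated counts, unscaled and fractional, and RPKM values, whose sorted values are nearly the same in every library. Counts of 35840 transcripts were summed over 24452 gene symbols and rounded. Genes passing the default filter were fitted in edgeR 4.0.16 (R 4.3.3) with TMM factors, 1 mean per group and the quasi-likelihood test, with Benjamini-Hochberg adjustment over all genes tested. Standard errors were derived from the F statistic. CPM refer to TMM-scaled library sizes. The study's 2-way model over all libraries was the guide for this design.

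Each comparison was also made without KO ethanol replicate 12. Alternatives were DESeq2 1.42.0, limma 3.58.1 (quality weights, or log2 RPKM with a pseudocount of 1 or 0.1), other filters, no TMM factors, single transcripts, the KO libraries alone, library-name letter, each library left out, and spline trends of GENCODE transcript length and GC content removed. The edgeR and DESeq2 models were run on simulated counts drawn with the real library sizes. Those counts held no length or GC trend and no outlying library composition, so the models were not tested under these. Intervals from counts cover counting error only. The members, gene lists and tests were chosen with earlier results of these data known. Named genes were the 10 with the smallest p in each direction in the 12-library fit and the 5 in each direction without the shallow library. Added to them were up to 6 per list, 8 discussed in the study, and the 3 most abundant of each marker list. The interaction counts cover this whole set, but not all of it is described in the text. Genes left out include Vgll3, Tnfsf13, Morf4l1-ps1, Pgap1, Zfp770, Isg20 and Tmprss5. Predicted genes were counted but not named. Fkbp5, Sgk1, Srebf1, Srebf2, Cdkn1a, Bax, Bbc3, Gadd45a, Mdm2, Scd1, Gabra5, Etv1, Pvalb, Adora2a, Lss and the sex-linked controls are named outside that rule, as textbook members of their lists or because few members were called. Targeted RNA-Seq of cortical layers and hippocampal subregions, protein and histological data were not analysed here. Some results are not reported here.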

Additional observations from a re-analysis of the deposited data

How the results depend on the processing

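Of 25 alternatives for the counts, edgeR and limma on RPKM gave no gene at an adjusted p under 0.05, DESeq2 gave 2 and limma with quality weights 2627. The count at an unadjusted p under 0.05 was 465 in the reported fit. It was 5060 with quality weights, 308 with at least 10 counts in every library (fewer genes tested), 229 with the library-name letter as covariate, 211 with length and GC trends removed and 1040 in the 5 deep KO libraries, a fit chosen after seeing the data. Leaving out each library gave 48 to 1141, with 274 without the shallow library, 48, 185 and 1141 without KO saline replicates 8, 9 and 7, and 380 higher against 121 lower genes without KO ethanol replicate 10 and 373 against 123 without replicate 18. The named genes with an interaction p under 0.05, counted after seeing the data, numbered 62, and 39 with the letter covariate, 41 with log2(RPKM + 1) and 32 with length and GC trends removed.

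The median of the ribosomal list was -0.15 with quality weights, -0.38 without both L libraries and -0.34 in the 5 deep KO libraries, and ranged from -0.37 to 1.46 as each library was left out. That of oxidative phosphorylation was 0.07 without both L libraries and ranged from 0.09 to 1.22. The GABA median was -0.12 with the trends removed, and the glucocorticoid median was -0.20 with log2(RPKM + 0.1) and ranged from -0.14 to 0.40. The other 4 lists tracked in this way, cholesterol and fatty acid synthesis, p53 targets and apoptosis, moved by less than the spread between libraries. That SD was 0.4, 0.38, 0.36 and 0.4 in log2 units. It exceeded the reported medians (-0.31, -0.25, 0.07 and -0.12), so losing the whole difference would not have counted as a move. The fatty acid median was -0.03 with trends removed, and the cholesterol median ranged from -0.55 to -0.16 as each library was left out.

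Lrrc17 turned negative with quality weights (-0.36), without both L libraries (-0.16), without the shallow library (-0.14, range to 7.64) and in the 5 deep KO libraries (-0.10). Hba-a1 did so at -1.52, -1.36, -1.34 (range to 2.55) and -1.30, and at -0.50 with the letter covariate. Values not called in the reported fit that changed sign were those of Acsl4 (-0.87, and 0.01 with trends removed), Scd1 (0.32 with trends removed, leave-one-out range -1.09 to 0.21), Dmtf1 (0.18 with quality weights, 0.05 without both L libraries, 0.28 with trends removed, 0.09 in the 5 deep KO libraries, range -0.20 to 0.06) and Map4 (0.02 in DESeq2, 0.43 with trends removed, range -0.08 to 0.01). The causes were not tested. Mt1 was called in 23 of 24 alternatives (edgeR unadjusted p = 0.0889 with trends removed) and Idi1 in 20. Stard4, Hhip and Dio2 were called wherever they were tested. Several other called genes lost the call more often. Cyp51 did so in 13 of 24 alternatives, Slc12a2 in 14, Grm5 in 12, Nr4a3 in 13 and Gabrb2 in 8. Adora2a lost it in 13 of the 23 alternatives in which it was tested. In the shallow library 1 read is worth 1.67 CPM, so values there below about 5.01 CPM rest on fewer than 3 reads. No paired analysis was possible because the groups share no replicate number and the labels used here give no litter. Litter was therefore not modelled.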
